A study of Mus musculus with 8 samples.

Results

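Surfactant lipid and its storage organelle were followed through 10 genes in embryonic mouse lung. Abca3, Lpcat1, Napsa, Ctsh and Lamp3 have products that carry, remodel or process lamellar body contents. Slc34a2 encodes a phosphate transporter of the type II cell surface. Pcyt1a, Pcyt1b, Chka and Chpt1 encode enzymes of phosphatidylcholine synthesis. Members were the probe sets annotated to exactly 1 of these symbols. The E18.5 array (late gestation) held 26 such probe sets of 45037, for 9 of the 10 genes. The older E11.5 array held 8 of 12422, for 7 genes. Lamp3, a membrane protein of lamellar bodies, had only a probe set shared with another gene on the E18.5 array, so no value of it is given.

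The study compared E18.5 lung RNA of MIA bitransgenic embryos, which carry both transgenes (3 arrays), with that of single transgenic control littermates (3 arrays), all FVB/N. The labels place MIA, a small secreted protein, beside SP-C, the surfactant protein C gene whose promoter is active in distal lung epithelium, and do not say which transgene the controls carried. An FVB/N lung and an FVB/N trachea from E11.5 were measured on 1 array each. Nothing in the labels says whether RNA was pooled or that arrays are separate embryos, so the p-values measure the spread between these arrays. Mia itself read 734.3 to 1071 in the controls and 31400 to 42670 in the bitransgenic lungs, which fits the labels.

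Surfactant is a film of lipid and protein that lowers surface tension in the air spaces. Alveolar type II cells make its main lipid, phosphatidylcholine, by the choline pathway, in which choline kinase (Chka) acts first, CTP:phosphocholine cytidylyl transferase (Pcyt1a, Pcyt1b) sets the pace, and cholinephosphotransferase (Chpt1) completes the molecule. Lpcat1 then exchanges acyl chains to give the saturated form of surfactant, and Abca3 pumps lipid into the lamellar body, a lysosome-related organelle from which surfactant is secreted. Napsa and Ctsh are proteases that trim the surfactant protein B and C precursors, and Slc34a2 takes up phosphate at the apical membrane. Several of these genes rise late in gestation as type II cells mature, a course that was not measured here.

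RefSeq promoter windows (GRCm38.p6, 250 bases before to 50 after an annotated transcript start) were given for 8 of the 10 genes, 11 windows in all. To set genes that were called beside one that was not, Pcyt1a, which did not change detectably, was added. The windows of the 3 genes that fell are shown with the first of the 3 windows of Pcyt1a. They run 5′ to 3′, and capitals mark the sterol response element motif (TCACNCCAC), the C/EBP motif (TTGCNNAA) and the NKX2-1 core (CTCAAG), each searched on both strands.
Abca3, chr17:24351773-24352072, plus strand: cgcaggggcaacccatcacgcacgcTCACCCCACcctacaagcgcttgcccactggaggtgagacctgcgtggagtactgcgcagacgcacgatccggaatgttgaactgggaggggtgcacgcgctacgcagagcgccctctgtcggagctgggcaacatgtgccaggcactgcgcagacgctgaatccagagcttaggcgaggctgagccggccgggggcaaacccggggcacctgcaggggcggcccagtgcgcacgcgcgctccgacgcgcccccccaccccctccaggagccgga
Slc34a2, chr5:53049103-53049402, plus strand: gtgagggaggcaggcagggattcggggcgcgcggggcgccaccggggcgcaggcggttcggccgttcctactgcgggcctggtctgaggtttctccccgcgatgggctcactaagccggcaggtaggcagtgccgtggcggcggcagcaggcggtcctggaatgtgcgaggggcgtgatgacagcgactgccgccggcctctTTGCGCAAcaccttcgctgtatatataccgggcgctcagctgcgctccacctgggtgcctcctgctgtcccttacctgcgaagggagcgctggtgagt
Lpcat1, chr13:73466981-73467280, plus strand: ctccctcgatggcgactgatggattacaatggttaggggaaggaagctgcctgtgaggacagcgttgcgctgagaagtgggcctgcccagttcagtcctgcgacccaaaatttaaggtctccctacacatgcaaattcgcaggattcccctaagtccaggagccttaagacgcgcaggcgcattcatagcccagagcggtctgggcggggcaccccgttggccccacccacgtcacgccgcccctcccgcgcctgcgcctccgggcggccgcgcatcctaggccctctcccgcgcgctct
Pcyt1a, chr16:32430671-32430970, plus strand: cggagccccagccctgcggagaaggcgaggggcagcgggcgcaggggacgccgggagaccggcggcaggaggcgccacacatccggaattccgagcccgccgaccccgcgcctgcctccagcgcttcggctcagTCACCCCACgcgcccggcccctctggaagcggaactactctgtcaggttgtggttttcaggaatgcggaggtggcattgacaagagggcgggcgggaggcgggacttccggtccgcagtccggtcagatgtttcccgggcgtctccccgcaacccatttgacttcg

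The sterol response element motif began 225 bases before the start of Abca3 and 116 bases before that of the Pcyt1a window printed. The second Pcyt1a window overlaps the first and holds the same site, 215 bases before its own start, and the third held none. The motif was found in 1.24% of all 32851 windows and in no window of the other 6 members with one. The C/EBP motif lies in 10.8% of all windows. Its match in Slc34a2, which reads the same on both strands, began 48 bases before the start. The NKX2-1 core was in 15.9% of all windows and among the members only in Chpt1. The Lpcat1 window held none of these 3 motifs. The GC box (GGGCGG) is in 35.7% of all windows. It matched in 5 of the 8 members with a window, among them Abca3, Lpcat1 and Pcyt1a of those printed. This member count is of genes with a match in any of their windows, so it differs in unit from the share of windows. The remaining motifs searched were the E-box (CACGTG, 7.15% of windows), the FOX motif (TGTTTAC, 3.65%) and the NF-Y box (CCAAT, 37.4%). A part of the glucocorticoid receptor motif, not the whole of it, was searched too (TGTTCT, 19% of windows). None of these 4 matched in the windows printed. These matches are letters in a window, and binding was not measured here.

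Array values are MAS5 signals, the linear brightness of a probe set, and the 2% trimmed mean was the same on every array of a table. The median signal was 415.3 to 464.2 on the E18.5 arrays, and 540.9 and 545.2 on the E11.5 arrays. The 3′ to 5′ ratio of the Actb control probe sets, which reads RNA quality, was 1.28 to 1.5 in the controls and 1.51 to 1.65 in the bitransgenic lungs. It was therefore higher in all 3 bitransgenic arrays, and its part in the changes below was not tested beyond a fit that holds it as a covariate. Control 3 and bitransgenic 3 correlated least with the other arrays (mean r across genes of 0.971 and 0.973, against 0.978 to 0.98 for the rest).

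At E18.5 the genes for lipid transport, phosphate uptake and acyl remodelling of phosphatidylcholine fell in the bitransgenic lungs. Those for the choline pathway of phosphatidylcholine synthesis overlapped the controls on their brightest probe sets. Slc34a2, Lpcat1 and Abca3 were 3.21-fold, 2.28-fold and 1.95-fold lower. Napsa was 2.03-fold lower but missed the threshold, and Ctsh was 1.27-fold lower and did not pass. Changes were tested with limma on log2 of the signal plus a pseudocount of 86.43, with Benjamini-Hochberg adjustment over 12625 genes and a threshold of 0.05. A gene was read from its brightest probe set.

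Of 8 members with enough signal to be tested, 3 were called lower, none higher and 5 were not called (adjusted p 0.0558 to 0.991). Over all genes tested, 0.436% were called lower and 0.238% higher. The groups did not overlap for 5 of the 8 members, all lower. Among all genes, 7.56% were without overlap and lower. The median log2 change of the 8 members was -0.66, and that of all genes was 0.01. The members were chosen with earlier results of these data known, so these comparisons describe the list only. In these whole lungs, fewer type II cells and less RNA per cell cannot be told apart.

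**Figure D1:**
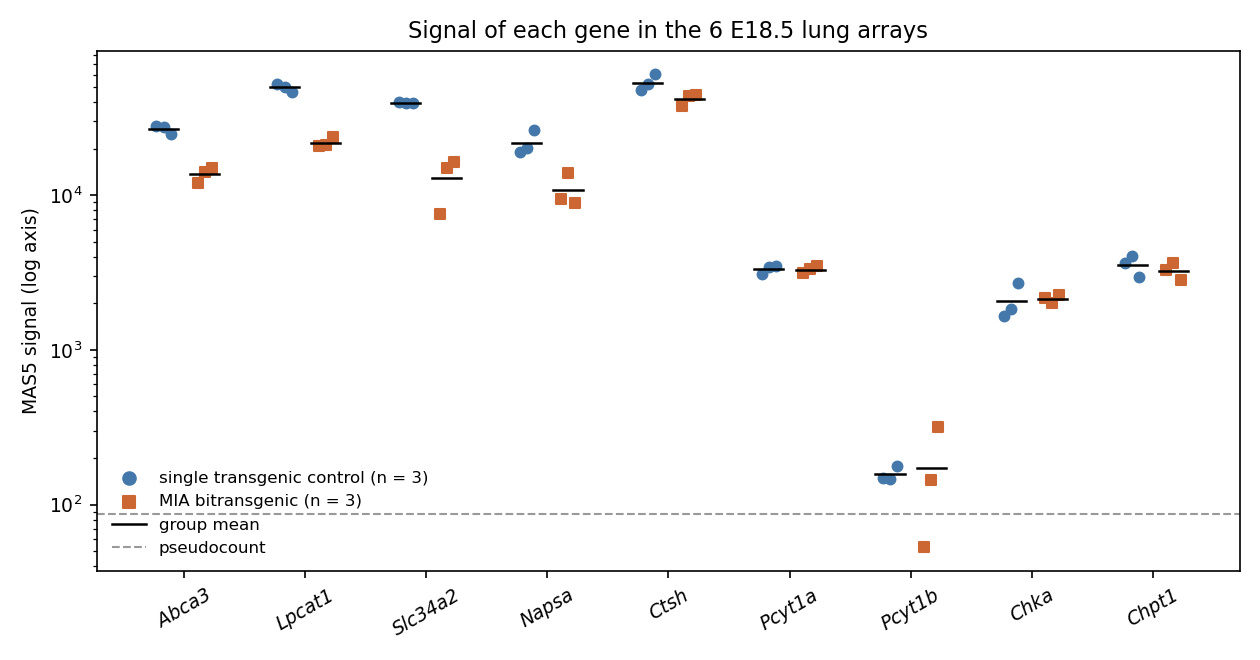
MAS5 signal on a log axis for the probe set that represents each of 9 genes, in the 3 control and 3 bitransgenic E18.5 arrays (points), with group means (black lines) and the pseudocount (dashed). The bitransgenic points lie below every control point for Abca3, Lpcat1, Slc34a2, Napsa and Ctsh, and overlap the controls for the other 4 genes.

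Abca3, the lipid pump of the lamellar body membrane, fell to 51.2% of the control mean in its brightest probe set. Its control arrays read 27810, 27520 and 24840, and its bitransgenic arrays 11950, 14100 and 14970. Every bitransgenic value lay below every control, by a gap wider than the range of either group. The means were 26720 ± 1635 (SD, n = 3) and 13670 ± 1552 (SD, n = 3), a log2 change of -0.97 (SE 0.12, limma adjusted p = 0.00807). It was not called without control 2 (-0.94, adjusted p = 0.077) or after adjusting for the Actb ratio (-1.01, adjusted p = 0.124).

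The 3 Abca3 probe sets did not move together. A second probe set drawn from the same transcript record as the brightest read 6655, 7224 and 9512 in control lungs and 2253, 2453 and 3072 in bitransgenic ones, 33.3% of the control mean. The dimmest, drawn from another record, read 1475, 1263 and 1234 against 1740, 1829 and 1637, so that its bitransgenic values all lay above the controls. Fitted over 27022 probe sets, the first pair had log2 changes of -0.97 and -1.55 (limma adjusted p = 0.0136 and 0.00607). The dimmest had a difference of 0.37 on the log2 scale (95% interval 0.05 to 0.69, limma adjusted p = 0.449) and kept its positive sign in all 15 alternatives tried on probe sets. Averaged over its 3 probe sets, Abca3 fell by 0.72 on the log2 scale (limma adjusted p = 0.0223).

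Slc34a2, the sodium-dependent phosphate transporter of the type II cell surface, had the largest fall among the probe sets that represent the members. Its only probe set read 40270, 39210 and 39420 in control lungs, and 7578, 15020 and 16340 in bitransgenic ones. The controls differed little, while bitransgenic 1 stood at 19.1% of the control mean and the other two at 37.9% and 41.2%. The means were 39630 ± 562.4 (SD, n = 3) and 12980 ± 4724 (SD, n = 3), a log2 change of -1.68 (SE 0.25, limma adjusted p = 0.0181). Without bitransgenic 1 the log2 change was -1.33 (adjusted p = 0.00326). Slc34a2 was not called without control 2 (-1.69, adjusted p = 0.09) or after adjusting for the Actb ratio (-1.45, adjusted p = 0.424).

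Lpcat1, the acyltransferase that makes saturated phosphatidylcholine, was the member called in all 19 alternatives. Its brightest probe set read 52300, 50370 and 46740 in control lungs, and 20680, 20980 and 23940 in bitransgenic ones. The groups were far apart, and each bitransgenic array stood between 41.5% and 48.1% of the control mean. The means were 49800 ± 2825 (SD, n = 3) and 21870 ± 1802 (SD, n = 3), a log2 change of -1.19 (SE 0.11, limma adjusted p = 0.000992). After adjusting for the Actb ratio it was -1.29 (adjusted p = 0.0135).

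The dimmer Lpcat1 probe sets that were tested gave larger falls than the brightest. The next 2 in brightness, from the same transcript record, stood at 25.3% and 21.9% of the control mean, with log2 changes of -1.97 and -2.17 (limma adjusted p = 0.000119 and 0.00182). The brighter of them read 33060, 32920 and 28300 in control lungs, and 7482, 8757 and 7624 in bitransgenic ones. All 4 tested probe sets of Lpcat1 fell, by sizes that differed between them. One from another record read 1032, 678.7 and 1097 against 365.3, 239.8 and 323.5 and fell by 1.36 on the log2 scale (limma adjusted p = 0.0414). Its call was lost whichever single array was left out (adjusted p 0.0693 to 0.154), without the filter on low signal (0.111) and after adjusting for the Actb ratio (0.632). The dimmest, from that same record, was too dim to be tested, at 133.9 to 222.5 in control lungs and 238.2 to 378.4 in bitransgenic ones, above every control.

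Napsa, the aspartic protease napsin A of lamellar bodies, had a difference close to that of Abca3 but with more spread. Control lungs read 18960, 20230 and 26260, and bitransgenic lungs 9458, 14010 and 8944. The groups did not overlap, and bitransgenic 2 lay nearest the controls, at 64.2% of their mean. The means were 21820 ± 3901 (SD, n = 3) and 10800 ± 2787 (SD, n = 3), a log2 change of -1.02 (SE 0.19, limma adjusted p = 0.0558). Without bitransgenic 2 it passed (log2 change -1.22, adjusted p = 0.0293), as it did with the Xist signal class (sex) in the model (adjusted p = 0.0292). It also passed with array weights (adjusted p = 0.00317), a fit that called 1339 genes. These were the only 3 of 19 alternatives in which Napsa was called. Averaged over its probe sets its log2 change was -0.64 (adjusted p = 0.254). After adjusting for the Actb ratio the log2 change of Napsa was -0.54 (adjusted p = 0.739). A second, dim Napsa probe set read 290.9 to 639.9 in control lungs and 275.4 to 499.9 in bitransgenic ones, so the groups overlapped.

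Ctsh, the cathepsin H aminopeptidase, had the smallest difference among the lamellar body members measured. Its signal was 47840, 52020 and 60380 in control lungs, and 37510, 43960 and 44370 in bitransgenic ones, without overlap. The log2 change was -0.35 (95% interval -0.62 to -0.07, limma adjusted p = 0.376). Its second probe set, nearly as bright, read 45800 to 49570 against 40280 to 47020, and these ranges overlapped. Where control 3 was left out, alone or with bitransgenic 3, the second became the brightest and the log2 change of Ctsh was -0.13 or -0.07. Its first probe set had -0.30 without both arrays (limma adjusted p = 0.226 over probe sets).

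Without control 3 and bitransgenic 3, the arrays that correlated least with the rest, the calls on Abca3 (-1.09), Lpcat1 (-1.30) and Slc34a2 (-1.89) held, at limma adjusted p of 0.00203, 0.000109 and 0.0142. Napsa was at -0.76 (adjusted p = 0.0669).

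**Figure D2:**
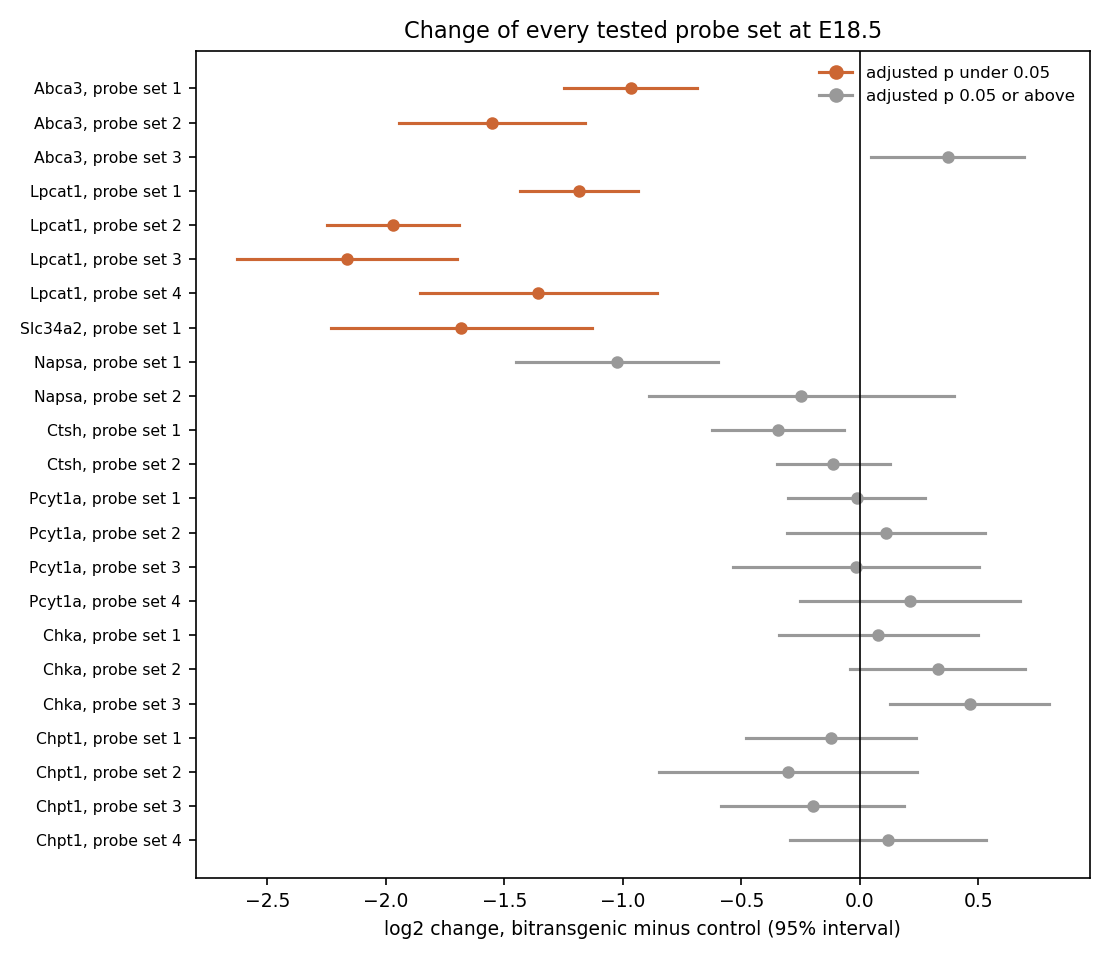
Log2 change (bitransgenic minus control, n = 3 per group) with its 95% interval for the 23 tested probe sets, ordered within each gene from brightest to dimmest. The 7 called probe sets belong to Abca3, Lpcat1 and Slc34a2, and the dimmest Abca3 probe set lies on the positive side at 0.37.

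Over probe sets, 7 of the 23 tested members were called lower and none higher, against 0.281% and 0.163% of all 27022 probe sets tested. The 7 were 2 of 3 Abca3, 4 of 4 tested Lpcat1 and the single Slc34a2 probe set, so they stand for 3 genes and are not independent. In this fit the Slc34a2 call was lost without any 1 control or without bitransgenic 2 (adjusted p 0.0529 to 0.121), and that of the brightest Abca3 probe set without control 2, bitransgenic 1 or bitransgenic 2 (adjusted p 0.0645 to 0.112). The bitransgenic values lay wholly below the controls in 9 of the 23 and wholly above in 2, against 7.3% and 9.29% of all probe sets. Without control 2 the count called was 4, and after adjusting for the Actb ratio it was 2, both of Lpcat1.

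The tested enzymes of the choline pathway, Pcyt1a, Chka and Chpt1, showed no such fall, unlike Lpcat1, which acts on phosphatidylcholine after them. Pcyt1a, the rate-setting cytidylyl transferase, read 3081, 3438 and 3498 in control lungs, and 3143, 3310 and 3466 in bitransgenic ones. The groups overlapped almost fully. Its log2 change was -0.01 (95% interval -0.30 to 0.27, limma adjusted p = 0.991), an interval of 0.813-fold to 1.21-fold that leaves out falls as large as those of Abca3, Slc34a2 or Lpcat1. All 4 Pcyt1a probe sets overlapped between groups, with log2 changes from -0.01 to 0.21.

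Pcyt1b, the second cytidylyl transferase, was near the floor of the array. Its brighter probe set read 148.2, 146.6 and 176.9 in control lungs, and 53.03, 143.9 and 318.5 in bitransgenic ones. The bitransgenic values lay on both sides of the controls. It did not pass the filter on low signal, and without the filter its log2 change was -0.05 (SE 0.36, limma adjusted p = 0.992).

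Chka, the choline kinase that starts the pathway, read 1648, 1840 and 2713 in control lungs, and 2151, 2015 and 2260 in bitransgenic ones. The bitransgenic values lay inside the control range, which control 3 set at its upper end. The log2 change was 0.08 (95% interval -0.34 to 0.50, limma adjusted p = 0.94). Another Chka probe set read 911.5, 1014 and 1178 against 1464, 1440 and 1452, with all bitransgenic values above the controls and a difference of 0.46 on the log2 scale (95% interval 0.13 to 0.80, limma adjusted p = 0.346). The remaining Chka probe set had a log2 change of 0.33 (adjusted p = 0.583), so that all 3 were positive and none was called.

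Chpt1, which joins phosphocholine to diacylglycerol, read 3636, 4022 and 2967 in control lungs, and 3263, 3649 and 2824 in bitransgenic ones. The groups overlapped, and control 3 and bitransgenic 3 were the lowest of each. The log2 change was -0.12 (95% interval -0.48 to 0.24, limma adjusted p = 0.875), and its 4 probe sets ran from -0.30 to 0.12 with overlap in each.

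**Figure D3:**
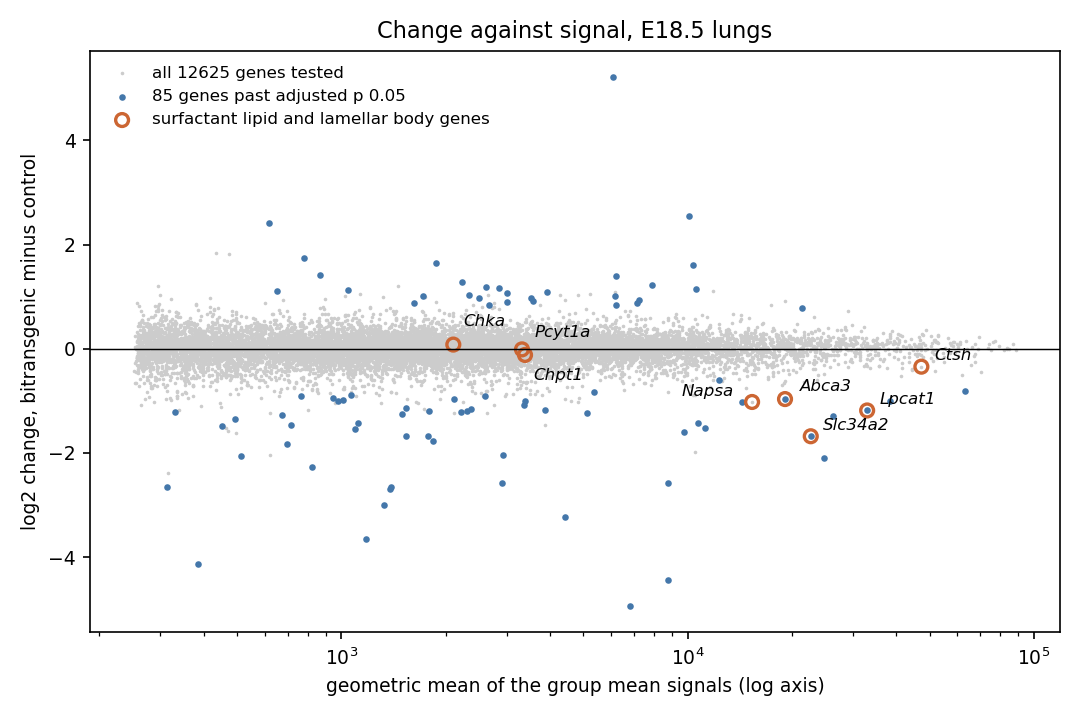
Log2 change against signal (geometric mean of the group means, log axis) for 12625 genes at E18.5 (grey), with the 85 genes past adjusted p 0.05 in blue and the 8 tested members ringed. Abca3, Lpcat1, Slc34a2, Napsa and Ctsh sit at the bright end of the array and below 0. The choline pathway enzymes Chka, Pcyt1a and Chpt1 sit near 0 at lower signal.

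Further genes of the same pathways were set beside the shares of all genes tested, 0.436% called lower and 0.238% higher. At such shares a short list can hold no call, so lists with none called show little. Of 33 tested genes of phosphatidylcholine synthesis and remodelling other than the members, none was called in either direction, and their median log2 change was -0.03. The smallest p-values were those of Gpam, a glycerol-phosphate acyltransferase, at -0.64 on the log2 scale (limma adjusted p = 0.092), of the lipid phosphatase gene Plpp2 with 0.59 (adjusted p = 0.132) and of Agpat4, an acylglycerol-phosphate acyltransferase, with 0.55 (adjusted p = 0.288).

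Among 42 tested genes of the lamellar body and related organelles, 2 were called lower and none higher, against 0.436% and 0.238% of all genes. Their median log2 change was -0.02. Rab27a, a small GTPase of granule secretion, went down from 3540 ± 351.3 (SD, n = 3) to a mean of 1573 ± 470.2 (SD, n = 3) and fell by 1.16 on the log2 scale (limma adjusted p = 0.037). Chil1, which encodes a secreted chitinase-like lectin rather than an organelle protein, fell by 2.27 on the log2 scale (limma adjusted p = 0.00025). The phospholipid flippase gene Atp8a1 and Rab38, a small GTPase needed for lamellar body size, had positive log2 changes of 0.65 and 0.68 (adjusted p = 0.0787 and 0.217), and Hps5, of a complex that builds such organelles, had 0.40 (adjusted p = 0.576).

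No relative of the members in the next 3 lists was called. None of 17 cathepsins, aspartic proteases and their partners passed (median log2 change -0.04), and the smallest p-values were those of the beta-secretase gene Bace1 (0.58, adjusted p = 0.49), the legumain gene Lgmn (-0.35, adjusted p = 0.613) and Ctsz (-0.20, adjusted p = 0.722). None of 8 other ABCA transporters passed (median -0.04), with Abca8a at 0.43, Abca8b at -0.38 and Abca2 at 0.57 (adjusted p = 0.337, 0.627 and 0.662). None of 5 tested genes listed as other phosphate transporters passed (median 0.07), where Xpr1, Slc17a5 and Slc20a2 had 0.17, 0.15 and 0.07. Slc17a5, like Abca2, was also counted among the lamellar body and organelle genes above. Of 37 regulators of type II cell maturation none passed (median -0.01). Foxa1 and Cebpa, transcription factor genes of this lineage, had log2 changes of 0.85 and -0.87 (adjusted p = 0.0659 and 0.143), and the receptor gene Fgfr2 had -0.41 (adjusted p = 0.238).

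Of 10 type II cell markers tested, 4 were called lower and none higher, against 0.436% and 0.238% of all genes. Their median log2 change was -0.84. Their summed signal was 341100 to 402500 in control lungs against 196600 to 232800 in bitransgenic ones. The called ones were Sftpa1, Cxcl15, Lyz2 and Lyz1, with log2 changes of -4.45, -1.01, -1.28 and -0.82, while Sftpd (-0.76), Sftpb (-1.99) and Cebpa (-0.87) were not called (adjusted p = 0.051, 0.0692 and 0.143). Muc1 (0.10) and Etv5 (0.08) were not called either (adjusted p = 0.918 and 0.934), and Sftpc read 81070 to 88410 against 72240 to 93280. Of 7 type I markers, 3 were called lower and none higher. The called ones, Aqp5, Clic5 and Rtkn2, had log2 changes of -3.65, -1.43 and -1.47. All 7 were negative, with a median log2 change of -0.36 and summed signals of 228300 to 247800 against 174200 to 194000. Of 12 pan-epithelial genes none was called, the median log2 change of all 12 was 0.26 with 9 of them positive, and their summed signals of 96840 to 109000 and 104300 to 114000 overlapped.

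Ctsh is also made by macrophages, and Lamp3 by maturing dendritic cells. None of 10 tested macrophage markers was called (median -0.06). The summed signal of all 12 listed was 30150 to 36980 in control lungs against 32540 to 35200 in bitransgenic ones. Of 8 dendritic cell markers 3 were tested and none was called (median 0.14). The summed signal of all 8 was 3663 to 4963 against 3911 to 4993, and Ccr7 was below the pseudocount in all 6 arrays. The part of the type II, type I or other cells in the changes of the members was not tested.

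The genes whose pattern over the 6 arrays was nearest were found by the root mean square difference of centred log2 values. For Abca3 these were Atp6v1c2 (0.08), Cxcl15 (0.08) and Notum (0.09). For Lpcat1 they were Atp6v1c2 (0.12), Abca3 itself (0.13) and Fabp12 (0.13). The nearest to Slc34a2 were Lrp2, Rnase4 and Rasgrf2, at larger distances of 0.25, 0.25 and 0.33. Atp6v1c2, a subunit gene of the proton pump that acidifies organelles, went down from 4935 ± 317.9 (SD, n = 3) to a mean of 2304 ± 291.1 (SD, n = 3) and fell by 1.08 on the log2 scale (limma adjusted p = 0.00904). These likenesses describe 6 arrays that share the group difference.

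At E11.5, before type II cells exist, none of the members with enough signal differed over 2-fold between lung and trachea. Sftpc, of the distal lung epithelium, read 1503 in lung and 256.8 in trachea, and Sox2, of the proximal airway, read 1016 and 4260. Of 6 lung bud markers compared 1 was over 2-fold higher in lung, and of 2 trachea markers both were over 2-fold higher in trachea. With 1 array each there was no replicate check, and these values describe the arrays alone. The E11.5 and E18.5 tables come from different array types scaled separately, so levels were not compared between ages.

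Lpcat1 read 1500 in lung and 1722 in trachea, a ratio of 0.877. Chka read 1061 and 1122, a ratio of 0.949, and Pcyt1a 853.3 and 863.4, a ratio of 0.989. These 3 were the members compared, by a mean above the filter and a higher signal above the table's median of 543.4, and none of them was over 2-fold apart, against 3.42% of the 5114 genes compared. Their median log2 ratio was -0.07, and that of all compared genes was -0.01. A second Pcyt1a probe set read 559.1 and 422.4, and Chpt1 read 344 and 384.5.

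The other members on this array read close to or under its pseudocount of 84.34 in at least 1 tissue. Slc34a2 read 97.72 in lung and 37.28 in trachea, Napsa 33.48 and 28.86, and Ctsh 196.1 and 58.12. Ctsh had the largest ratio of the members, 1.97 on the signal plus pseudocount, at signals below the median of the table. Among other phosphatidylcholine genes 1 of 19 compared was over 2-fold apart, the phospholipase gene Pla2g6 at 253.2 in lung and 632.1 in trachea, and none of 27 lamellar body and organelle genes was. None of 10 cathepsins and partners, 2 phosphate transporters and 2 ABCA transporters was apart, and 1 of 21 regulators was, the transcription factor gene Cebpb at 1957 in lung and 502.8 in trachea. Pla2g6 and Cebpb were named after their values were seen.

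**Figure D4:**
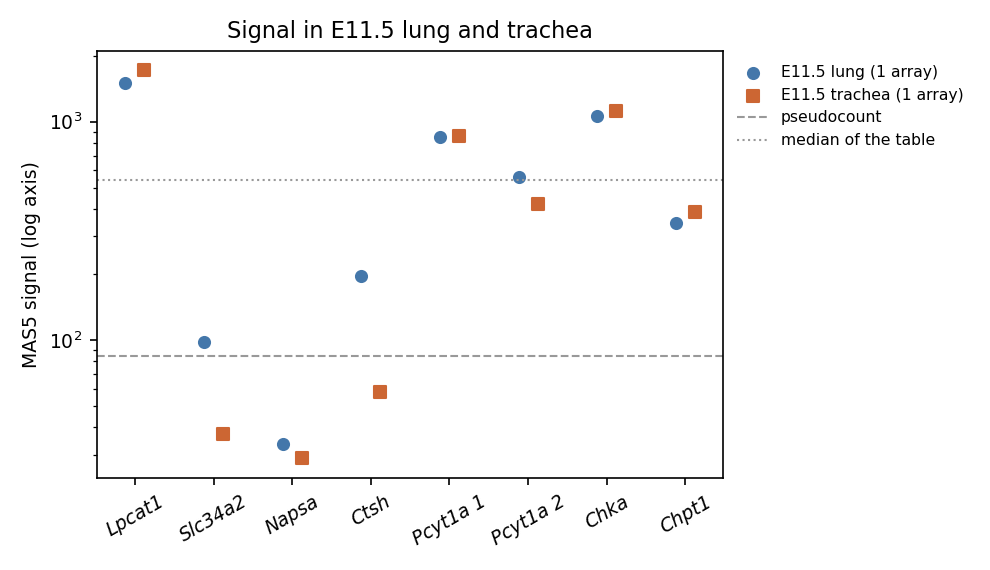
MAS5 signal on a log axis in the E11.5 lung and trachea arrays (1 array each) for the 8 probe sets of 7 genes, with the pseudocount (dashed) and the table's median (dotted). The points of both tissues lie close together for Lpcat1, Chka and Pcyt1a, and Slc34a2, Napsa and Ctsh lie near or below the pseudocount in at least 1 tissue.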

How the data were processed

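RNA from 8 samples was measured on 1-colour Affymetrix arrays. Per the submitters' processing notes the deposited values are MAS5 output, version not given in the sources used here; the deposited intensity is a linear signal per probe set. Its 2% trimmed mean, computed here, was 1500 on each E18.5 array and 1500.9 on each E11.5 array, and the scaling target is not given in the sources used here. Control probe sets were removed (64 and 66). Of 45037 E18.5 probe sets 34945 had 1 symbol in the array annotation, 932 several and 9160 none. Of 12422 on the E11.5 array 10833 had 1 symbol, 396 several and 1193 none.

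The pseudocount was the 20th percentile of each table (86.43 and 84.34). Genes, or probe sets, whose mean log2 value was below the 40th percentile of all probe sets were not tested. Groups were compared with limma 3.58.1 (R 4.3.3), lmFit and eBayes with a trend, two-sided. Exact permutation of 3 arrays against 3 cannot go below p = 0.1. Alternatives changed the normalization, pseudocount, filter, probe set rule, variance model, covariates and arrays used. Replicates are numbered in accession order. Changes near the pseudocount are compressed, and the number of arrays limits precision.

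Text names all 10 members and their probe sets, each listed gene that passed plus up to 3 more with the smallest p, and the 3 nearest profiles of Abca3, Slc34a2 and Lpcat1. The members and the lists were chosen with earlier results of these data known. Figures used matplotlib 3.10.9.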

Additional observations from a re-analysis of the deposited data

How the results depend on the processing

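Over 19 alternatives, Lpcat1 was called in all 19, and Abca3 and Slc34a2 in 17 each. Log2 changes ran from -1.30 to -1.15 for Lpcat1, from -1.09 to -0.72 for Abca3 and from -1.89 to -1.33 for Slc34a2. Napsa kept its sign (-1.22 to -0.54) and was called in 3, and Ctsh (-0.42 to -0.07) in 1. Chpt1 kept its sign and was not called in any. With array weights, whose estimation stopped before convergence, 5 members and 1339 genes were called, against 3 and 85. Adjusting for the Actb ratio left 1 and 20, and 2 of 7 probe sets stayed called. Without both arrays of lowest correlation 189 genes were called, and at adjusted p under 0.1 165. Leaving out 1 array gave 1 to 4 members (1 without control 2), 4 to 6 probe sets (4 without control 2) and 22 to 97 genes, the lowest without control 2, 36 without bitransgenic 3 and 41 without bitransgenic 1. The log2 change of Pcyt1a turned to 0.07 with the mean of its probe sets and also after that adjustment, and ran from -0.07 to 0.02 with 1 array left out. That of Chka ran from -0.06 (without control 1) to 0.28 there. The causes were not tested. No E11.5 setting tried put a compared member over 2-fold apart, or over 1.5-fold with that threshold. Array numbers follow accession order and pair nothing, so no pairing was fitted. Depth is not defined for arrays, and signals near the pseudocount, as for Pcyt1b at E18.5 and Napsa at E11.5, set no usable ratio.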
